A study of Mus musculus with 4 samples.

Results

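The collagen gene family was followed across the mesenchymal cells of mouse bone and bone marrow. Its members were all genes whose symbol is Col, a number, the letter a and a further number, and nothing else, which gave 44 of the 32285 genes measured. Transcripts and surface CD24 had been read together by CITE-seq, in which an oligonucleotide-tagged antibody is counted beside the mRNA of the same cell. The cells came from 1 young mouse of 6 months and 1 old mouse of 24 months. Both were INK-ATTAC mice, a transgenic line in which part of the p16 promoter drives a caspase 8 that a drug can activate, and neither had been treated. Cells were released from femur and tibia and from their marrow, depleted of blood lineages, and sorted as live CD45- cells, so the group sizes describe sorted cells and not the tissue. With 1 mouse per age, a difference between the ages cannot be told apart from a difference between animals or libraries, and it was given no test.

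Collagens are trimeric proteins of the extracellular matrix. Fibrillar collagens I, II, III, V and XI form the cables of bone, cartilage and soft tissue, collagens with interrupted helices sit on the surface of these fibrils, collagen IV forms the sheet of basement membranes, and collagen VI makes beaded filaments close to the cell. In the skeleton collagen I is the main protein of bone matrix, collagens II, IX and XI build cartilage, and collagen X marks chondrocytes in hypertrophy.

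After barcodes with under 200 genes or over 20% mitochondrial UMIs were left out, 10063 young and 5607 old cells remained, with a median of 6385 and 9711 UMIs (unique molecular identifiers, 1 per captured transcript). The libraries shared 25 barcode sequences, 19 of them among the cells kept. Cells were put into 6 mesenchymal groups by lists of 8 marker genes that held no collagen. Levels of a group in a mouse are given in CPM, its UMIs of a gene per 1000000 RNA UMIs, with 95% exact intervals that cover counting error only. A cell needed at least 3 markers of a list and at least 1 more than of any other list, so a group is a range of marker counts and not a proven cell type. The groups, named for their lists, held 3446 young and 2247 old cells (stromal, with Lepr and Cxcl12), 2658 and 1107 (fibroblast, with Pi16 and Dpt), 722 and 420 (osteoblast, with Bglap and Ibsp), 483 and 188 (tendon or periosteum, with Tnmd and Scx), 300 and 73 (chondrocyte, with Acan and Sox9) and 65 and 65 (pericyte or smooth muscle, with Rgs5 and Acta2). Cells that only just met the rule made up 9.14% to 61.6% of a group, with 49.3% of young and 37.1% of old osteoblast-group cells among them. The 8 osteoblast markers summed to 9525 young and 11800 old CPM in the chondrocyte group (8 and 7 of them detected), against 17111 and 30145 in the osteoblast group, and their part in the collagen levels was not tested. 

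Some family members lie next to each other in the genome, among them Col4a1 and Col4a2, which encode the chains of the common collagen IV trimer. They start head to head on chromosome 8 and their annotated genes overlap by 85 bases (Col4a1 at chr8:11198423-11312889 on the minus strand, Col4a2 at chr8:11312805-11449287 on the plus strand, mouse GRCm38.p6, RefSeq). Promoter windows of 250 bases before and 50 after the start site are shown for both genes because their levels are compared as partners in the results on chain ratios. Capitals mark the 78 bases that the windows share, read on opposite strands. The window of Col1a2, a chain of collagen I and the second most abundant member, is shown with its 2 matches to CCAAT, searched on both strands, in capitals.
Col4a1, chr8:11312777-11313076, minus strand: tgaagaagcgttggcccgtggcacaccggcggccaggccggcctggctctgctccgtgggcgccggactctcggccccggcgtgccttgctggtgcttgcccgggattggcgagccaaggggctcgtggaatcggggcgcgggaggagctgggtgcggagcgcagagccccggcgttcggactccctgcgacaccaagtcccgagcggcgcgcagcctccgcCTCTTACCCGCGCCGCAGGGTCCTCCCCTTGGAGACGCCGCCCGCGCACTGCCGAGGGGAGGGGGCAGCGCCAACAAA
Col4a2, chr8:11312555-11312854, plus strand: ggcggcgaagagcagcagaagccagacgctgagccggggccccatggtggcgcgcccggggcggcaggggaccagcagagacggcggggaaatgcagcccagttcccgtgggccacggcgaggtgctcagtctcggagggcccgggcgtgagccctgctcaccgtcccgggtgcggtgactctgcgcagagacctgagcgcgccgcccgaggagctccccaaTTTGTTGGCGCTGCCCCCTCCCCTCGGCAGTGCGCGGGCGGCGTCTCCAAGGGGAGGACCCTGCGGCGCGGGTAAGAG
Col1a2, chr6:4505368-4505667, plus strand: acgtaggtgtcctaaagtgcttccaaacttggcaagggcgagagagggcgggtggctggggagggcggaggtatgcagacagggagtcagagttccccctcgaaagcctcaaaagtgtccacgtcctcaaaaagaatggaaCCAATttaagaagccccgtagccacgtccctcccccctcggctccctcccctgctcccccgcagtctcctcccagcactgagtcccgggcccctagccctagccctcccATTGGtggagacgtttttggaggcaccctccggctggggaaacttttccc
CCAAT or its reverse complement stood in the windows of 13 of the 35 collagens that had one (37.1%), and in 41.1% of the 27025 genes with a window. GGGCGG, on either strand, stood in 62.9% of the collagens and in 38.2% of the genes. TATAAA stood in 14.3% and 15.7%. These are letter matches in a window and not binding sites. Col1a1, Col2a1, Col4a3, Col5a2, Col9a3, Col12a1, Col14a1, Col22a1 and Col26a1 had no window.

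The mesenchymal groups of both mice held 2835363 collagen UMIs, and Col1a1, Col1a2 and Col3a1 made up 79.7% of them. Col1a1 (chr11:94936224-94953042), which encodes the main chain of collagen I, had 369942 young and 603370 old UMIs. All 44 members were detected, yet the range was wide. There were 31 members with at least 1000 UMIs and 7 with under 100 over both mice, namely Col4a3, Col6a4, Col7a1, Col17a1, Col19a1, Col20a1 and Col28a1.

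Collagen took the largest share of RNA in the osteoblast group. There it made up 7.17% (95% interval 7.15 to 7.19) of all UMIs in the young mouse and 12.8% (12.7 to 12.8) in the old mouse. Next came the tendon or periosteum group with 2.99% and 4.25%. The fibroblast group had 2.01% and 2.63% and the chondrocyte group 2.36% and 2.17%, so the order of these pooled shares differed between the mice. The medians over cells kept 1 order, at 1.55% and 1.43% in the fibroblast group and 1.10% and 1.21% in the chondrocyte group. Lowest were the stromal group with 1.06% and 1.13% and the pericyte or smooth muscle group with 0.510% and 0.571%. The share varied widely between cells of a group. The middle 50% of osteoblast-group cells ran from 1.54% to 7.98% in the young and from 1.66% to 13.5% in the old mouse, around medians of 3.54% and 5.35%. Fibrillar collagens held 94.0% of the young and 97.3% of the old collagen UMIs in that group.

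**Figure D1:**
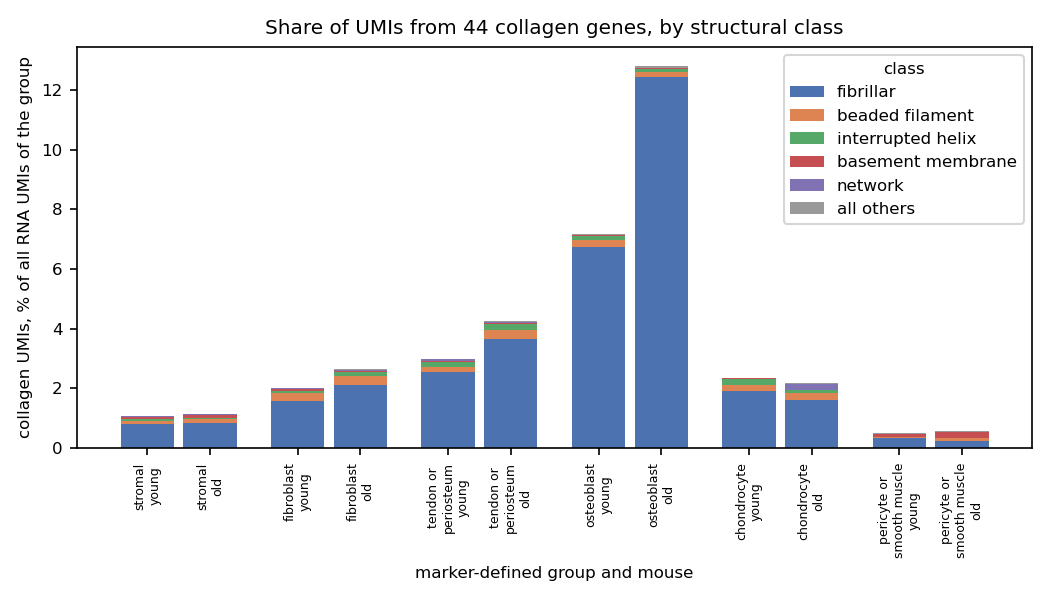
Bars show collagen UMIs as a percentage of all RNA UMIs (y axis) for the 6 marker-defined groups in the young and old mouse (x axis), stacked by structural class. The osteoblast-group bars reach 7.17% and 12.8%, above every other group, and are almost wholly fibrillar.

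Blood cells of the same libraries, taken here to lack collagen transcripts, gave the background. Col5a1 stood out among them and is given with the flagged results. Over 5 blood-marker groups in both mice, Col1a1 lay between 55.2 and 462 CPM, Col1a2 between 48.6 and 512, Col3a1 between 28.1 and 401, Col2a1 between 0 and 4.38, and Col4a1 between 2.81 and 50.8. Col1a1 had a UMI in 33.8% to 74.6% of these blood cells, or 9.09% to 33.9% after each cell was thinned to 2000 UMIs. The median depth of the blood groups was 2970 to 28764 UMIs, against 6196 and 11942 in the osteoblast group and 5491 and 8505 in the stromal group. In the osteoblast group the shares were 99.2% and 99.3% of cells, and 98.8% and 99.0% after thinning. In the stromal group Col1a1 had a UMI in 62.9% of young and 84.3% of old cells, or 43.1% and 57.5% after thinning. In the pericyte or smooth muscle group Col1a1 was at 879 CPM in the young mouse, above the blood range, and at 492 in the old mouse, close to its top.

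Whether a collagen differed between groups was tested on UMIs summed per mouse and group, each group against the mean of the other 5, with edgeR's quasi-likelihood F test and the mouse as a block (12 sums of 2 mice, two-sided, Benjamini-Hochberg adjusted over 13456 genes). Of the 44 members, 37 passed the filter on low counts. The 7 that did not pass were Col6a4, Col7a1, Col17a1, Col19a1, Col20a1, Col26a1 and Col28a1, with 5 to 94 UMIs in a mouse. With the mouse as a block, these p-values weigh differences between groups against how far they varied between the 2 mice. Each mouse is the only animal of its age, so they do not measure the spread between animals of an age. Where one of the groups had no UMI of a gene in a mouse, the fitted fold depends on the prior count, so levels are mostly given for such genes. The folds printed for Col8a2, Col25a1 and the glycosyltransferase gene Colgalt2 carry this limit. Pericyte or smooth muscle cells had no UMI of Col8a2 in the old mouse, nor of Col25a1 and Colgalt2 in the young mouse.

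In the osteoblast group 17 of 37 collagens were higher and 6 lower than in the other groups, against 15.9% and 10.7% of all genes tested. The median log2 difference over the 37 was 1.00 as fitted, or 0.13 with sums under 3 UMIs set to 3, against 0.06 over all genes as fitted. In each of the 6 groups this floor was set for the collagens only, so the median over all genes has no floored partner. Collagen I led. Col1a1 stood at 33739 CPM (33585 to 33893) in the young and 65975 (65781 to 66170) in the old mouse, and the next group, tendon or periosteum, had 9629 and 13065 (log2 4.04 ± 0.246 SE against the mean of the other groups, adjusted p = 1.28e-06). Col1a2 stood at 22779 and 47343 CPM (log2 3.63 ± 0.265, adjusted p = 4.09e-06). No other group of either mouse reached the osteoblast level of either chain.

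Several lesser collagens shared the osteoblast group. Col22a1, a collagen with interrupted helices known from the muscle-tendon junction, had 115 young and 298 old CPM there and at most 8.27 and 13.8 elsewhere (adjusted p = 3.56e-07). Col13a1, a transmembrane collagen, had 266 and 258 CPM, 4.12 and 16.9 times the next group (log2 5.31 ± 0.292, adjusted p = 6.74e-07). Col24a1, a fibrillar collagen known from developing bone, had 27.8 and 85.8 CPM (adjusted p = 3.24e-05), but the young chondrocyte group lay higher at 36.9. Col25a1, another transmembrane member, had 41.0 and 27.0 CPM (adjusted p = 3.56e-07). These 4 members were below 300 CPM in both mice, far under collagen I. Col5a1 and Col5a2, which regulate the width of collagen I fibrils, were higher by log2 1.63 ± 0.0995 and 1.84 ± 0.0927 (adjusted p = 1.29e-06 and 4.29e-07). Col16a1 was higher by 1.71, Col12a1 by 1.82, Col8a2 by 1.13, Col3a1 by 1.04, Col6a3 by 1.02 and Col23a1, at 6.40 and 10.3 CPM, by 1.00. The 6 lower members included the basement membrane genes Col4a1 (log2 -2.50), Col4a2 (-2.45) and Col4a5 (-2.90, on 4 young and 10 old UMIs), together with Col14a1 (-1.77), Col8a1 (-1.72) and Col18a1 (-1.16).

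Collagens best known from cartilage were also present in the osteoblast group. Col2a1 (chr15:97975602-98004724), the main cartilage fibril gene, had 225 young and 585 old CPM, against 3195 and 2631 in the chondrocyte group. Col11a1 had 847 and 2057 CPM and Col11a2 had 296 and 948, against 1322 and 690 and against 534 and 349 in the chondrocyte group, so the order of these groups turned between the mice. All 3 genes were called higher in the osteoblast group (Col2a1 log2 4.24 ± 0.460, adjusted p = 7.30e-05). Cells of the osteoblast group without any of the 8 chondrocyte markers, 259 young and 215 old, still had 232 and 634 CPM of Col2a1, 1141 and 2520 of Col11a1 and 534 and 1326 of Col11a2. In the old mouse Col2a1 had a UMI in 149 of 420 cells (35.5%), and 106 of those 149 held no chondrocyte marker. In the young mouse 124 of 722 cells had one (17.2%), and 1 cell held 31.3% of the Col2a1 UMIs of the group. Col9a1 and Col10a1 did not follow, with at most 3.13 and 2.09 CPM in the osteoblast group. Within that group Col11a2 had a UMI in 75.8% of old cells with Col2a1 and in 28.4% of those without, and in 53.2% and 13.2% in the young mouse.

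In the chondrocyte group 16 of 37 collagens were higher and 5 lower, against 13.0% and 7.94% of genes. The median log2 was 0.53 as fitted and 0.36 with the floor of 3 UMIs, against 0.02 over all genes. Collagen IX, which coats collagen II fibrils, was near 0 outside this group. Col9a2 had 644 young and 266 old CPM against at most 4.21 and 3.90 in any other group (adjusted p = 2.13e-08), Col9a3 had 653 and 282 against 2.14 and 1.10 (adjusted p = 4.84e-10), and Col9a1 had 216 and 72.5 (adjusted p = 1.40e-07). Col10a1 was called too (adjusted p = 1.53e-09), on UMIs held mostly by 1 old cell, as described with the ages. Col27a1, a fibrillar collagen of cartilage, had 631 and 557 CPM (log2 3.70 ± 0.197, adjusted p = 3.62e-07), 8.41 and 5.49 times the next group. Col2a1 was higher by log2 7.83 ± 0.421 (adjusted p = 3.96e-07) and Col11a1 by 3.90 ± 0.298. Col13a1 (log2 2.11), Col8a2 (1.88), Col15a1 (1.21) and Col12a1 (1.17) were higher as well. Col18a1 (-3.03), Col4a1 (-2.82), Col14a1 (-2.26), Col4a2 (-1.79) and Col5a3 (-1.79) were lower.

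The tendon or periosteum group had 15 of 37 collagens higher and 1 lower, against 9.60% and 3.25% of genes, with a median log2 of 0.52 as fitted, 0.46 with the floor, and 0.03 over all genes. Network collagen VIII and the fibril-associated collagens XII and XIV led. Col8a2 had 242 young and 184 old CPM (adjusted p = 2.05e-06) and Col8a1 had 362 and 293 (log2 2.45 ± 0.335, adjusted p = 7.61e-04). Col12a1, found in tendon and other load-bearing tissue, had 1153 and 961 CPM (log2 2.50 ± 0.240, adjusted p = 8.47e-05), and Col14a1 had 237 and 568 (log2 2.50 ± 0.315). Both mice had their highest level of Col12a1, Col8a1 and Col8a2 here. Col11a1 (log2 1.55), Col23a1 (1.35), Col3a1 (1.31), Col1a1 (1.30), Col16a1 (1.28), Col1a2 (1.27), Col15a1 (1.11) and Col5a2 (1.04) were higher too. Col4a5 was the lower one (-3.22), on 5 young UMIs and 1 old UMI in this group.

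In the fibroblast group 15 of 37 collagens were higher and 7 lower, against 16.9% and 10.4% of genes, with a median log2 of -0.11 as fitted, -0.27 with the floor and 0.03 over all genes. Col14a1 had 800 young and 912 old CPM and a UMI in 82.5% and 85.9% of cells (log2 3.82 ± 0.288, adjusted p = 4.17e-06). The lesser collagen VI chains Col6a5 and Col6a6 had 96.1 and 56.6 CPM and 64.2 and 43.0 CPM (adjusted p = 1.21e-04 and 9.61e-07). Their cells were few, since Col6a5 had a UMI in 13.2% of young and 10.9% of old fibroblast-group cells. Col4a5 (log2 2.61), Col5a3 (1.67), Col3a1 (1.37), Col4a1 (1.29) and Col18a1 (1.00) were also higher. The main collagen VI chains Col6a1 (987 and 1167 CPM) and Col6a2 (800 and 888 CPM) were higher by log2 0.77 and 0.95. Col3a1 exceeded Col1a1 in UMIs here, at 6810 young and 8802 old CPM against 3577 and 5395. Col13a1 (log2 -3.81), Col25a1 (-3.46), Col11a1 (-3.31), Col12a1 (-1.68) and Col27a1 (-1.39) were lower.

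The pericyte or smooth muscle group held little collagen, and the members called higher there were genes of basement membrane collagen IV and XVIII. Fibrillar collagens were still its largest class, with 61.9% of young and 39.4% of old collagen UMIs, against 18.2% and 30.7% for collagen IV. Only 6 of 37 collagens were higher and 16 lower, against 12.1% and 11.7% of genes, and the median log2 was -2.15 as fitted and -0.85 with the floor, against -0.19 over all genes. Col18a1, the source of endostatin, had 289 young (237 to 350) and 432 old CPM (378 to 490), 6.16 and 5.32 times the next group (log2 3.98 ± 0.164, adjusted p = 3.19e-08). Col4a1 had 425 (361 to 496) and 988 (906 to 1075) CPM and Col4a2 had 403 (341 to 473) and 665 (598 to 737), higher by log2 2.24 ± 0.284 and 2.23 ± 0.200. Col4a5 had 73.0 and 69.8 CPM (log2 4.02 ± 0.469, adjusted p = 9.18e-05). Col4a3 and Col4a6 were called as well, on 4 to 9 UMIs in a mouse. Among the lower members were Col1a2 (log2 -3.78), Col1a1 (-3.59), Col12a1 (-3.13), Col5a1 (-2.65), Col14a1 (-2.26), Col5a2 (-2.21), Col16a1 (-2.17), Col3a1 (-2.15), Col27a1 (-1.68), Col6a1 (-1.67) and Col6a2 (-1.59).

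The stromal group, the largest, had 4 of 37 collagens higher and 15 lower, against 24.4% and 16.9% of genes, with a median log2 of -0.66 as fitted, -0.77 with the floor and 0.07 over all genes. The 4 higher ones were Col8a1 (234 young and 251 old CPM, log2 1.68 ± 0.333, adjusted p = 0.00226), Col4a1 (456 and 533 CPM, log2 1.49 ± 0.265, adjusted p = 0.00111), Col4a2 (231 and 285 CPM, log2 0.83) and Col25a1 (5.41 and 4.90 CPM, log2 1.07). Col4a1 had a UMI in 77.6% of young and 81.0% of old stromal cells, or 53.9% and 60.1% after thinning, against 3.21% to 11.4% and 0% to 3.03% of blood cells. The 15 lower members were of several classes, with Col15a1 (log2 -1.90), Col13a1 (-1.87), Col6a3 (-1.58), Col1a1 (-1.52), Col5a2 (-1.27) and Col3a1 (-1.26) among them, as was the minor basement membrane gene Col4a4 (-1.92, at 1.23 and 0.950 CPM). Col1a1 was still at 2566 and 2403 CPM, above the blood range.

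**Figure D2:**
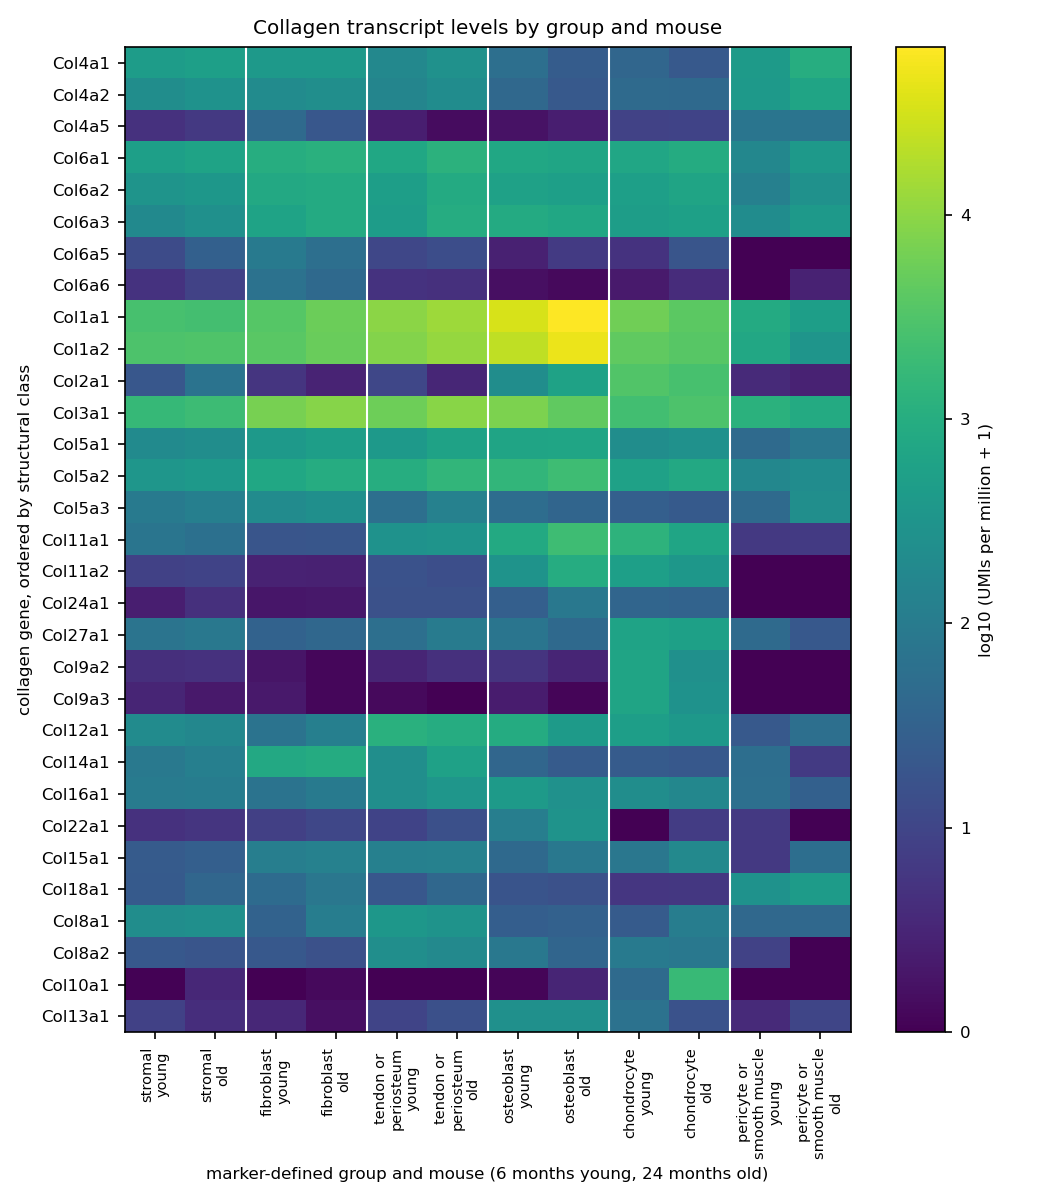
Colour gives log10 of CPM plus 1 for the 31 collagens with at least 1000 UMIs (rows, ordered by structural class) in 6 marker-defined groups of the young and old mouse (columns). Col1a1 peaks at 33739 and 65975 CPM in the osteoblast columns, Col9a2 and Col9a3 are dark outside the chondrocyte columns, and Col18a1 is brightest in the pericyte or smooth muscle columns.

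Of the 31 most abundant members, 22 had their highest level in the same group in both mice. These were 6 in the osteoblast group, 5 each in the chondrocyte and fibroblast groups, and 3 each in the tendon or periosteum and the pericyte or smooth muscle group. Col3a1 was among those that did not, being highest in the young osteoblast group (7232 CPM) and in the old tendon or periosteum group (9196 CPM), and in each mouse the fibroblast group was within 1.06 times of that level.

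Genes that modify, fold, cut or cross-link collagen were given by a list of 32, of which 31 could be tested across groups. In the osteoblast group 19 were higher and 3 lower, with a median log2 of 0.70, against 15.9% and 10.7% of all genes. Sparc, a collagen-binding matrix protein, was higher by log2 2.33 ± 0.147, Bmp1, which cuts the procollagen tail, by 2.01 ± 0.172, and Fkbp10, a folding enzyme, by 1.58 ± 0.125. Loxl4 was called higher too, at 16.1 young and 20.0 old CPM, with no UMI in pericyte or smooth muscle cells of either mouse. The 3 lower genes were P3h2, Pcolce2 (-2.46 ± 0.319) and Tmem38b (-0.56 ± 0.162). In the pericyte or smooth muscle group 22 of the 31 were lower, against 11.7% of all genes, and 1 was higher, the channel gene Tmem38b (log2 2.61 ± 0.200). The chondrocyte group had 14 higher and 3 lower, against 13.0% and 7.94% of all genes, led by the glycosyltransferase Colgalt2 (log2 4.68 ± 0.145) and Pcolce2 (4.06 ± 0.182). The tendon or periosteum group had 9 and 1 (9.60% and 3.25% of all genes), the fibroblast group 7 and 6 (16.9% and 10.4%), and the stromal group 5 and 10 (24.4% and 16.9%). Prolyl hydroxylase P3h2 was higher in stromal (log2 1.78 ± 0.234), chondrocyte (2.78 ± 0.297) and tendon or periosteum cells (1.08 ± 0.314), and lower in osteoblast (-2.62 ± 0.409) and fibroblast cells (-4.17 ± 0.380).

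Partner chains were compared as ratios of UMIs, which need no division by length because each 3′ UMI counts 1 transcript end. Collagen I contains more alpha 1 than alpha 2 chain, and the ratio of Col1a1 to Col1a2 lay between 0.786 and 1.52 over the 12 sums. It was 1.48 (1.47 to 1.49) in young and 1.39 (1.39 to 1.40) in old osteoblast-group cells, and 0.846 and 0.786 in stromal cells. Fibroblast cells lay at 0.914 (0.905 to 0.923) and 1.05 (1.04 to 1.06). The counting intervals of the osteoblast and stromal groups were far apart in both mice. The head-to-head pair Col4a1 and Col4a2 had a ratio of 1.98 (1.91 to 2.05) and 1.87 (1.81 to 1.93) in stromal cells, 1.89 and 1.69 in fibroblast cells, and 1.05 (0.837 to 1.33) and 1.49 (1.30 to 1.70) in pericyte or smooth muscle cells. The highest of the 11 ratios of this pair was 2.33 times the lowest. Col4a2 had a UMI in 70.4% of young stromal cells with Col4a1 and in 37.8% of those without, and the old values were 81.8% and 29.0%.

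Other pairs ranged more or less widely. Col6a1 to Col6a2 lay between 1.23 and 1.75, a range of 1.42 times over 12 sums, and these genes lie 85161 bases apart, while Col6a1 to Col6a3 ran from 0.756 to 2.73, a range of 3.61 times. Col5a1 to Col5a2 lay between 0.323 and 0.611. Col8a1 to Col8a2 ran from 0.250 in young chondrocyte cells to 14.2 in old stromal cells, where Col8a1 was abundant with little of its partner. Col11a1 to Col11a2 was 2.48 and 1.97 in chondrocyte cells and 2.86 and 2.17 in osteoblast cells, but 18.5 and 22.8 in tendon or periosteum cells. Col9a3 to Col9a2 was 1.01 (0.946 to 1.09) and 1.06 (0.893 to 1.26) in the chondrocyte group. Col3a1 to Col1a1, chains of separate collagens, ran from 0.0664 in old osteoblast cells to 1.90 in young fibroblast cells.

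Between the old and the young library, collagens past 2-fold were counted among those with at least 50 UMIs over both libraries of a group. The osteoblast group had 10 of 27, against 4.63% of all genes. The chondrocyte group had 7 of 27, against 5.32%. The stromal group had 6 of 34, against 2.83%, the fibroblast group 5 of 30, against 2.95%, the tendon or periosteum group 4 of 26, against 2.55%, and the pericyte or smooth muscle group 5 of 13, against 3.19%. With 1 mouse per age these shares describe this pair of libraries. The medians of the log2 ratio of old to young were -0.11 for the collagens and -0.16 for all genes in the osteoblast group, 0.58 and 0.00 in the tendon or periosteum group, 0.72 and 0.06 in the pericyte or smooth muscle group, 0.23 and 0.02 in the stromal group, 0.21 and 0.01 in the fibroblast group, and -0.18 and -0.02 in the chondrocyte group.

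In the osteoblast group the old library was higher in collagen I and in Col2a1, Col11a1, Col11a2, Col22a1 and Col24a1, and lower in Col4a1, Col4a2, Col8a2 and Col12a1. Col1a2 was 2.08 times higher (2.06 to 2.09) and Col1a1, just under the limit, 1.96 times (1.94 to 1.97). Col11a2 was 3.20 times higher (3.03 to 3.38), Col24a1 3.09 times (2.58 to 3.71), Col2a1 2.60 times (2.44 to 2.78), Col22a1 2.59 times (2.37 to 2.84) and Col11a1 2.43 times (2.35 to 2.51). Old over young was 0.437 for Col4a1, 0.441 for Col8a2, 0.448 for Col12a1 (0.428 to 0.470) and 0.499 for Col4a2, while Col3a1, at 7232 and 4384 CPM, came to 0.606 (0.597 to 0.615) and Col27a1 to 0.587 (0.504 to 0.683). Leaving out the top cell of each gene in each library kept these directions, with 3.41 for Col2a1 and 3.29 for Col11a2. Markers of the osteoblast list moved as well. Bglap, the gene of osteocalcin, had 7179 young and 16677 old CPM, Ibsp 8020 and 11078, and Phex 64.4 and 401, whereas Alpl had 904 and 648. All 8 markers were detected in both mice, and the chondrocyte list, with 8 and 7 of 8 markers detected, summed to 741 young and 320 old CPM. The tendon or periosteum list, 8 of 8 markers of which were detected in each mouse, summed to 1475 and 798 CPM, and the stromal list, likewise detected, to 514 and 324. The part of these shifts within the group in the collagen ratios was not tested.

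In the chondrocyte group collagen IX was lower in the old library, with ratios of 0.336 (0.259 to 0.431) for Col9a1, 0.413 (0.361 to 0.471) for Col9a2 and 0.432 (0.379 to 0.491) for Col9a3. Col2a1 had 3195 and 2631 CPM. The list's own markers were also lower, at 18768 young and 10901 old CPM, all 8 of them detected. Col8a1 was 4.82 times higher in the old library (3.47 to 6.77) and Col15a1 2.23 times (1.82 to 2.74). Col13a1, a transmembrane collagen, was lower in the old library in 3 groups, with ratios of 0.237 in chondrocyte, 0.414 in stromal and 0.255 in fibroblast cells, on 15, 64 and 9 old UMIs, but was at 266 and 258 CPM in the osteoblast group.

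**Figure D3:**
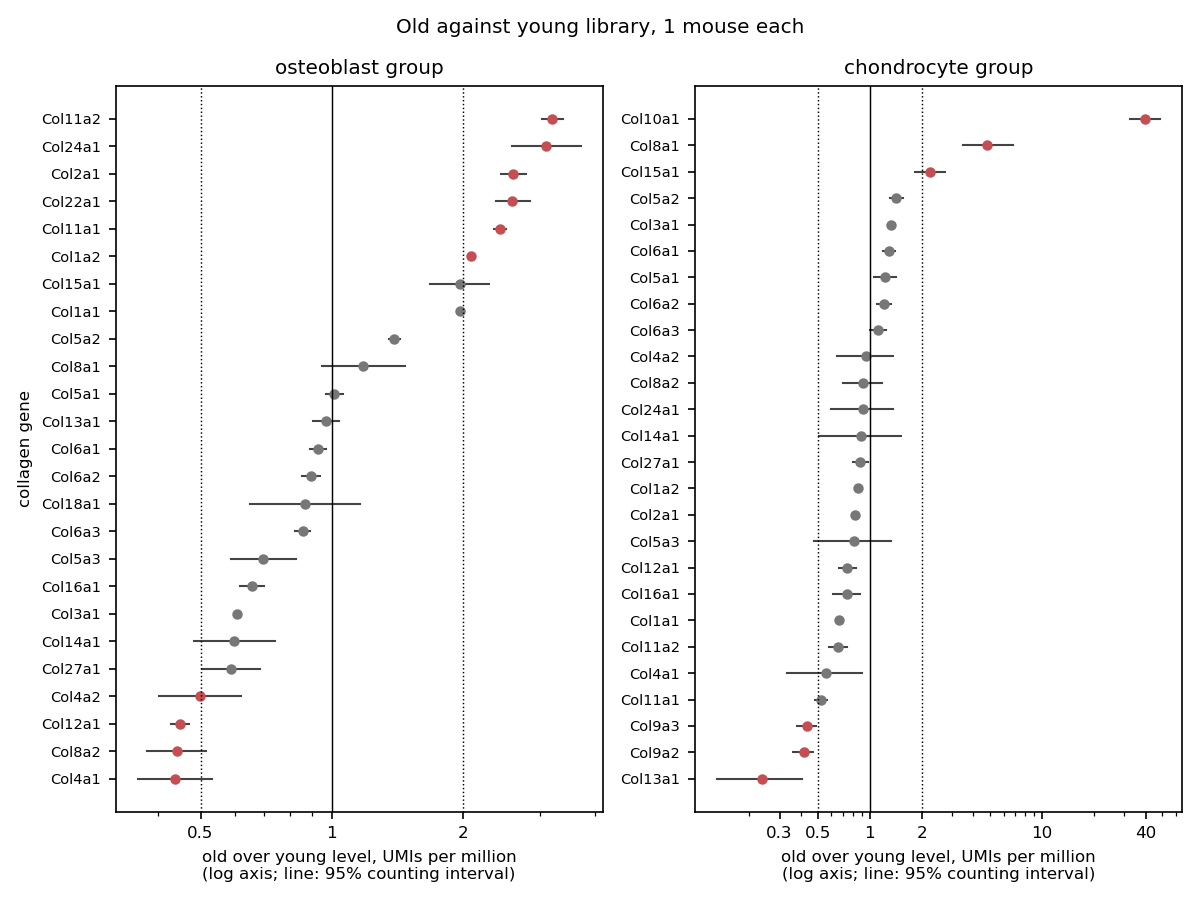
Points give the old over young ratio of the level (x axis, log scale) for collagens with at least 1000 UMIs in all (y axis), in the osteoblast group on the left and the chondrocyte group on the right, with 95% counting intervals as lines and red points past 2-fold. Col11a2 leads the osteoblast panel at 3.20 and Col10a1 the chondrocyte panel at 39.5, and there is 1 mouse per age.

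Col8a1 was higher in the old library in fibroblast cells too, at 107 against 31.9 CPM (3.35 times, 3.07 to 3.67), and had a UMI in 22.9% of old and 10.1% of young cells, or 7.17% and 3.81% after thinning. In the same cells the tendon or periosteum list summed to 628 young and 1075 old CPM and the stromal list to 1491 and 2087, all 8 markers of each being detected, and their part in the Col8a1 ratio was not tested. Its partner Col8a2 did not follow, at 14.8 and 20.1 CPM. Col5a3 was higher in old tendon or periosteum cells (130 against 55.5 CPM, 2.34 times, 1.94 to 2.84) and in old pericyte or smooth muscle cells (237 against 46.0 CPM, 5.15 times, 3.10 to 9.12). Col14a1 (2.39 times) and Col6a3 (2.09 times) were higher in old tendon or periosteum cells, and Col4a5 came to 0.426 in fibroblast cells. In the tendon or periosteum group the fibroblast list summed to 843 young and 1157 old CPM, with 8 of 8 markers detected. The chondrocyte list, with 7 detected, summed to 2390 and 921 CPM. The group's own list had 9865 and 8030 CPM and the stromal list 662 and 650, with all 8 markers of each detected. The part of these shifts in the ratios was not tested. In pericyte or smooth muscle cells Col4a1 was 2.33 times higher in the old library (1.94 to 2.80). There the fibroblast list summed to 235 young and 49.6 old CPM, with 6 and 4 of 8 markers detected. The osteoblast list, with 6 detected in each mouse, summed to 179 and 49.6 CPM. The stromal list had 860 and 874 CPM and the group's own list 20006 and 20667, with all 8 markers of each detected. The part of these shifts in the ratios of this group was not tested.

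Some ratios rested on 1 cell. Col10a1 (chr10:34389981-34397085), the hypertrophic marker, was at 44.5 CPM (36.6 to 53.6) in young and 1761 (1679 to 1846) in old chondrocyte-group cells, 39.5 times higher. Of the 1724 old UMIs, 1319 (76.5%) came from 1 cell, where Col10a1 made up 2.71% of all UMIs. Without the top cell of each library the ratio was 11.5. The old cells next in rank held 195 and 118 Col10a1 UMIs, so this ratio rested on few cells as well. It had a UMI in 13 of 73 old cells and in 18 of 300 young cells. In the stromal group Col2a1 appeared 3.54 times higher in the old library, but 1 cell held 1196 of its 1368 UMIs (87.4%), and without the top cells the ratio turned to 0.489. That cell had 42505 UMIs, 7 of the 8 stromal and 6 of the 8 chondrocyte markers, and was not predicted to be a doublet. The 49 old stromal UMIs of Col10a1 came to 85.7% from 1 cell.

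Over all mesenchymal cells of a mouse, only Col10a1 (73.6% in the top cell) and Col9a3 (38.4%) had more than 25% of at least 50 UMIs in 1 cell, both in the old mouse. The top cell held 1.52% and 1.83% of the Col1a1 UMIs. The top 1% of cells held 33.3% of young and 38.3% of old Col1a1, 85.7% and 80.8% of Col2a1, 90.4% and 88.4% of Col9a2, but 9.76% and 11.7% of Col6a1. Col2a1 and Col9a2 were sums over few cells, whereas Col6a1 had a UMI in 83.5% and 84.4% of cells. Members of 1 collagen type could differ in this, since Col6a5 had a UMI in 6.61% and 7.51% of cells and 60.0% and 55.7% of its UMIs in the top 1%. Col27a1 had a UMI in 25.7% and 35.7% of cells, with 28.7% and 19.3% in the top 1%.

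**Figure D4:**
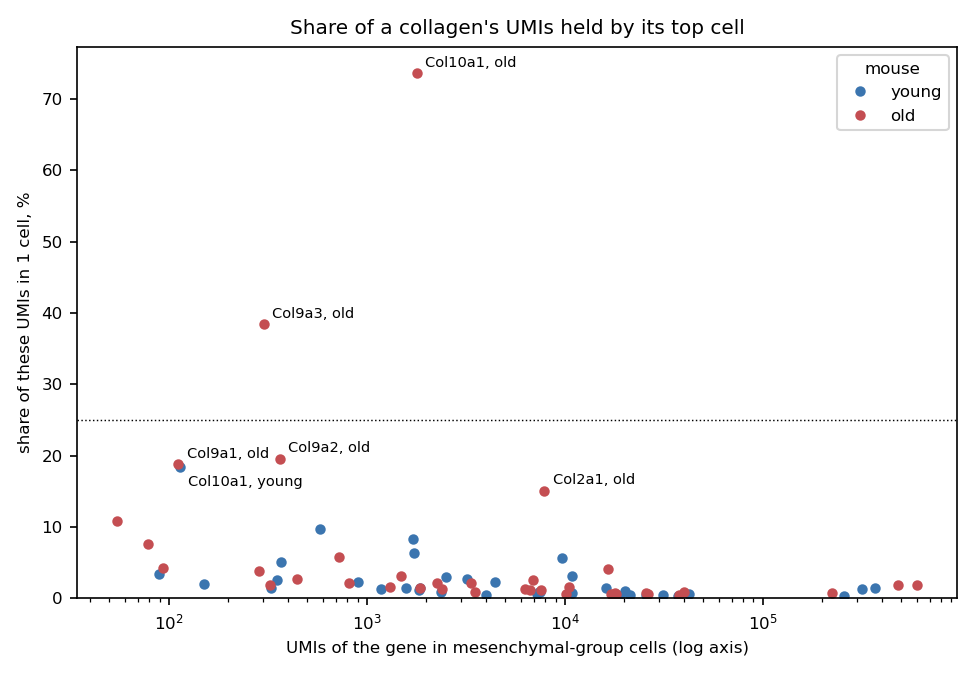
Each point is a collagen in 1 mouse with at least 50 UMIs in mesenchymal cells, with its UMIs on the x axis (log scale) and the percentage of them in 1 cell on the y axis. Old Col10a1 at 73.6% and old Col9a3 at 38.4% lie above the dotted line at 25%.

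CD24 protein, which the study used to set apart a subset of skeletal cells, was called from the antibody count by a threshold per library. It gave 604 CD24+ and 7070 CD24- young and 206 and 3894 old mesenchymal cells. In edgeR's test on 4 sums with the mouse as a block, 19 of 40 collagens were higher and 9 lower in CD24+ cells, against 9.31% and 7.52% of 15350 genes, with a median log2 of 0.52 against -0.00 over all genes. The mix of groups differed. Osteoblast-group cells made up 25.0% of young and 30.6% of old CD24+ cells and 8.08% and 9.17% of CD24- cells, and chondrocyte-group cells 14.2% and 9.71% against 3.03% and 1.36%. Blood markers moved too, with the erythroid list at 268 young and 286 old CPM in CD24+ and 29.3 and 20.9 in CD24- cells, all 8 markers being detected.

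Col1a1 had 11504 young and 25194 old CPM in CD24+ cells against 5867 and 12437 (log2 1.06 ± 0.0706, adjusted p = 6.23e-06). When CD24- cells were weighted to the group mix of CD24+ cells, the log2 differences of 1.02 and 1.11 in the young and old mouse came to 0.13 and 0.01. The same weighting took Col2a1 from 2.29 and 1.46 to 0.31 and -0.07, Col11a1 from 1.91 and 1.15 to 0.53 and -0.17, Col9a2 from 2.58 and 2.21 to 0.49 and 0.33, and Col13a1 from 1.49 and 1.73 to 0.02 and 0.36. Col27a1 went from 1.40 and 0.76 to 0.43 and 0.24. The differences of these members were thus smaller at a matched mix in both mice. Col16a1 and Col12a1 kept more of theirs. Col16a1, a minor collagen with interrupted helices, had 306 and 307 CPM in CD24+ against 108 and 127 in CD24- cells (log2 1.46 ± 0.0849, adjusted p = 2.44e-06), and 0.95 and 0.98 at a matched mix. Col12a1 had 684 and 465 against 234 and 216 CPM (log2 1.40 ± 0.1000, adjusted p = 1.06e-05), and 0.99 and 0.79 at a matched mix. Col3a1, at log2 0.51 and 0.43, came to 0.62 and 0.58. Col4a1 (log2 -0.88 ± 0.0787), Col4a2 (-0.78), Col8a1 (-0.80) and Col14a1 (-0.75) were lower in CD24+ cells. At a matched mix Col4a1 had -0.58 and -0.51, Col4a2 -0.56 and -0.39, and Col8a1 -0.30 and -1.04, but Col14a1 only -0.13 and -0.02. Of the 32 biosynthesis genes 11 were higher and 1 lower, against 9.31% and 7.52% of all genes, and 4 were called with DESeq2. Without the mouse block edgeR called 6 collagens in place of 28 and 0 biosynthesis genes, with 22 and 8 at an unadjusted p under 0.05.

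**Figure D5:**
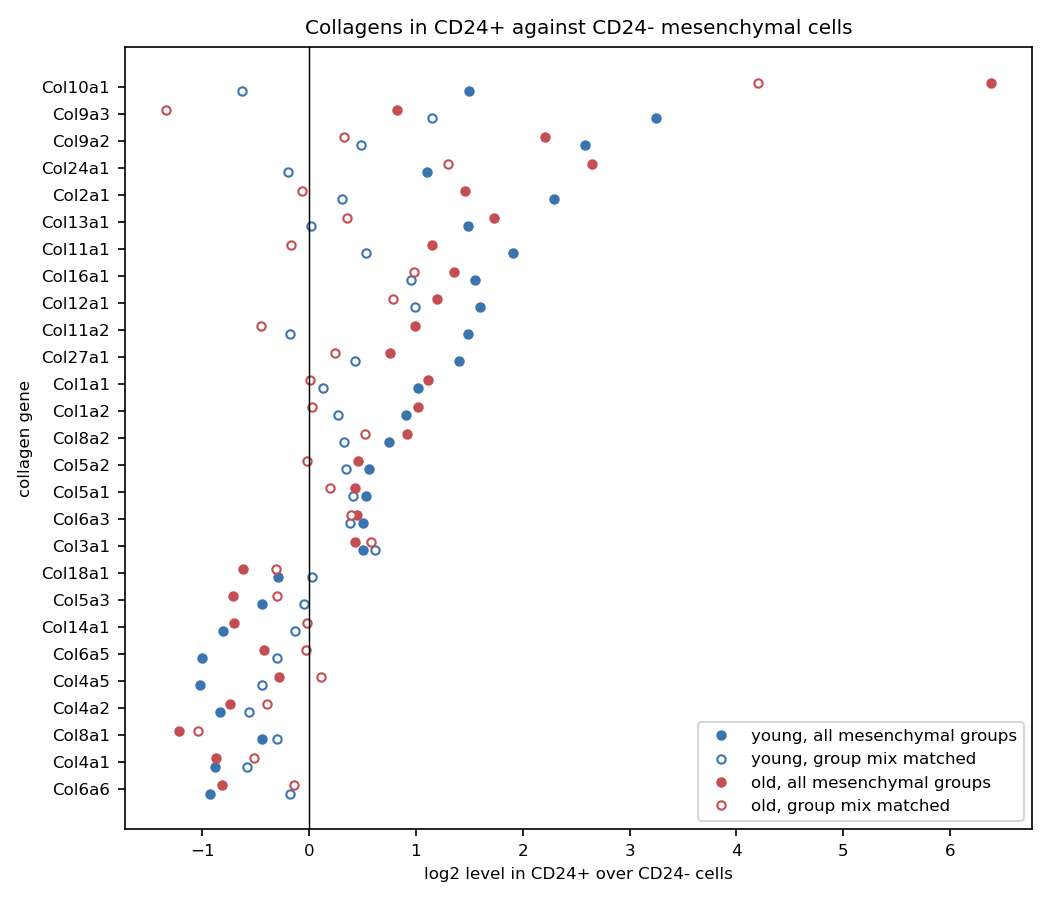
Filled points give the log2 ratio of the level in CD24+ over CD24- mesenchymal cells (x axis) for called collagens with at least 1000 UMIs (y axis) in the young and old mouse, and open points the same with CD24- cells weighted to the group mix of CD24+ cells. Col1a1 moves from 1.02 and 1.11 to 0.13 and 0.01, while Col16a1 stays at 0.95 and 0.98.

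Within the osteoblast group (151 CD24+ and 571 CD24- young, 63 and 357 old cells) 4 of 29 collagens were higher and 2 lower, against 0.709% and 0.608% of 10860 genes, with a median log2 of 0.36 against -0.00. Col16a1 had 657 young and 472 old CPM in CD24+ against 328 and 236 in CD24- cells (log2 0.98 ± 0.128, adjusted p = 0.00115). Col12a1 had 1575 and 659 against 693 and 371 CPM (log2 0.99 ± 0.133, adjusted p = 0.00144), Col3a1 had 11591 and 7253 against 5616 and 3830 (log2 0.96 ± 0.108, adjusted p = 3.30e-04), and Col6a3 had 1145 and 1018 against 761 and 689 (log2 0.55 ± 0.120, adjusted p = 0.0369). All 4 were higher in CD24+ cells of both mice. Col25a1 was lower, at 14.9 and 12.0 against 50.6 and 29.9 CPM (log2 -1.61 ± 0.238, adjusted p = 0.00322), and Col11a2 at 137 and 679 against 356 and 1000 (log2 -0.96 ± 0.167, adjusted p = 0.00934). Col1a1 had 31786 and 60166 CPM in CD24+ against 34463 and 67096 in CD24- cells (log2 -0.16 ± 0.0960, adjusted p = 0.670). The osteoblast markers were lower in CD24+ cells, at 13768 and 24092 against 18349 and 31314 CPM over the 8 genes, and the part of this in the collagen differences was not tested. The count of 6 was 0 without the mouse block in edgeR (8 at an unadjusted p under 0.05), 3 with DESeq2 and 12 without the top cell of each gene. Of the 29 biosynthesis genes tested here 0 passed in edgeR's test, with 5 at an unadjusted p under 0.05, and 0 passed with DESeq2.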

How the data were processed

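Both libraries were deposited as raw counts, whole UMIs per gene and barcode for 32285 genes and 1 antibody, with no normalization. The matrices name Cell Ranger 6.1.1 in their first lines, and the submitters' processing notes name Cell Ranger, R 4.0.3, Seurat 4.0 and the mm10 build, while the release of the gene annotation is not given in the sources used here. Droplet 3′ libraries read transcript ends, so isoforms were not separated, and free RNA is counted with the cell.

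Barcodes with at least 200 genes and at most 20% mitochondrial UMIs were kept, leaving 81076421 young and 66702846 old UMIs. Groups were set by 15 lists of 8 markers without collagens. The blood, other and unassigned cells (1361 young and 817 old in no group) entered no test. Scrublet (scanpy 1.11.5, seed 1) predicted 2.67% and 1.02% doublets, kept in the main results. CD24+ meant an antibody count over the Otsu threshold of log(1 + count), above 312 young and 396 old counts (scikit-image 0.26.0). Sums per mouse were tested in edgeR 4.0.16 (R 4.3.3; TMM, filterByExpr, quasi-likelihood F test, mouse as block, since all sums of a mouse come from 1 animal), called at an adjusted p under 0.05. With 5 residual degrees of freedom for groups and 1 for CD24, the spread is mostly borrowed across genes. On simulated data the group test recovered 48.0% of 100 genes changed by log2 1 and 87.0% of 100 changed by log2 2 (13456 genes), the mesenchymal CD24 test 56.0% and 89.0% (15350 genes), and the osteoblast CD24 test 47.0% and 91.0% (10860 genes). The simulated counts had 1 fixed spread for every gene and no other difference between groups or mice. Recovery in the real data, where groups and mice differ, may therefore be another. Ages were compared without a test, by exact conditional binomial intervals. Shares have exact Clopper-Pearson and levels exact Poisson intervals at 95%.

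Members with at least 1000 UMIs, called members with a log2 difference over 1 in both mice, members past 2-fold between libraries in 2 groups, and members with over 25% of UMIs in 1 cell were named. Members, lists and tests were chosen with earlier results of these data known. Coordinates and promoters are from RefSeq tables of GRCm38.p6, the assembly behind mm10, matched by symbol for all 44 members and 35 of them with a promoter. Numbers were computed with Python 3.11.15, SciPy 1.17.1 and DESeq2 1.42.0 as an alternative. Alternatives changed the scaling, low-count filter, tool, block, mitochondrial limit, doublets, depth, top cell, group rule and CD24 threshold.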

Additional observations from a re-analysis of the deposited data

Results flagged for a closer look

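A collagen was singled out where the old over young difference passed 2-fold in opposite directions in different groups with at least 100 UMIs in each library. The difference between groups was not tested, since there is 1 mouse per age. Col1a2 was higher in the old osteoblast group (log2 1.06) and lower in the old pericyte or smooth muscle group (log2 -1.24). Its 765 young and 323 old CPM in the latter reached into the range of blood cells of 48.6 to 512. The top of that range, in young neutrophil-marker cells, had 52.6% of its UMIs in 1 cell. The blood sum after it, 370 CPM in young megakaryocyte-marker cells, had 46.8% in 1 cell. Col4a1 was lower in the old osteoblast group (log2 -1.19, 56.3 and 24.6 CPM) and higher in the old pericyte or smooth muscle group (log2 1.22). Its blood range was 2.81 to 50.8, but 1 cell held 96.0% of the UMIs of the highest blood sum, old B-lineage cells. The next highest blood sum was 15.4, below both osteoblast levels. Marker lists shifted within the osteoblast and the pericyte or smooth muscle group, as given with the ages. Their part in these ratios was not tested.

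Col5a1 stood out in cells outside the mesenchymal groups. In erythroid-marker cells it had 84.9 CPM (78.4 to 91.8) in the young and 82.7 (76.5 to 89.4) in the old mouse. Progenitor-marker cells came next with 57.4 and 57.0 CPM. Lower were B-lineage cells with 14.0 and 10.2, neutrophil-marker cells with 11.4 and 9.85, and megakaryocyte-marker cells with 17.2 and 1.87. A UMI was found in 53.6% and 49.6% of erythroid-marker cells, or 14.2% in each mouse after thinning. Progenitor-marker cells had 51.7% and 47.5%, or 10.9% and 5.08% after thinning, and B-lineage cells 3.21% and 9.80%, or 1.61% and 2.08%. The top erythroid cell held 3.50% and 6.53% of the UMIs. The ratio of Col5a1 to Col5a2 was 2.78 (2.39 to 3.25) and 3.85 (3.24 to 4.59) there, and 5.50 and 7.92 in progenitor-marker cells, against 0.323 to 0.611 over the mesenchymal groups. Erythroid-marker cells had a median depth of 14164 and 15501 UMIs, progenitor-marker cells 21029 and 28764, and B-lineage cells 4682 and 8028.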

How the results depend on the processing

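Of 14 counts of collagens under 116 alternatives, 96 stayed within 1.5 times. For the 6 group comparisons all did, and of the 123 calls 105 to 123 kept direction and call under each alternative, the fewest with the stricter group rule, where 1 turned direction. Counts past 2-fold between libraries were smaller when cells were thinned to 2000 UMIs, which also left fewer UMIs (1 in stromal, 5 in osteoblast, 3 in chondrocyte, 1 in tendon or periosteum, 3 in fibroblast, 1 in pericyte or smooth muscle cells), and with at least 200 UMIs (3 in stromal, 2 in fibroblast, 3 in pericyte or smooth muscle cells). The stricter group rule gave 4 in chondrocyte and 8 in pericyte or smooth muscle cells, and removing doublets gave 3 in fibroblast cells. The stricter rule also gave 15 in osteoblast cells in place of 10 and 4 in stromal cells in place of 6. Both of these were counted as within 1.5 times. No mouse block gave 6 collagens for CD24 over mesenchymal cells in place of 28, and 0 of 29 in the osteoblast group in place of 6 (edgeR, with 8 and 16 at an unadjusted p under 0.05). There the count was 13 with DESeq2 size factors, 11 without a low-count filter, 3 with DESeq2, 11 without doublets, 3 after thinning and 12 without top cells, and the cause was not tested. At a matched group mix the CD24 log2 difference turned, among called collagens, for Col9a1 (-0.47), Col9a3 (-1.34), Col11a1 (-0.17), Col2a1 (-0.07), Col5a2 (-0.02) and Col4a5 (0.11) in the old mouse, for Col24a1 (-0.20), Col10a1 (-0.63) and Col18a1 (0.03) in the young mouse, and for Col11a2 in both (-0.18 young, -0.45 old). Leaving out a mouse leaves no residual degrees of freedom, so each mouse's own values stand in the text instead. Small groups limit the depth, since 3 UMIs in pericyte or smooth muscle cells are 8.11 young and 5.51 old CPM.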
